A study of Durio zibethinus with 9 samples.

Results

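The genes described here are 7 members of the ethylene signalling pathway of durian fruit pulp, taken by their gene numbers out of the 39453 reference genes that any library listed above 0. They are 2 ethylene receptor 2-like genes (LOC111279153 and LOC111306700), 1 ethylene response sensor 1-like gene (LOC111305038), 2 EIN3-binding F-box protein 1-like (EBF1) genes (LOC111284689 and LOC111303272), mitogen-activated protein (MAP) kinase 3 (LOC111284718) and MAP kinase 19-like (LOC111275978). The names are those of the study's own list of ethylene genes, which was drawn up from these same samples. Pulp of cultivar D24, an edible durian clone, was collected from young fruits (YS) 90 days post-anthesis, from mature fruits (MS) at 120 days and from ripening fruits (RS) at 127 days, and each stage has 3 libraries. The comparisons of these stages are called YSMS, MSRS and YSRS. No treatment was given, and the fruits for RS were picked mature and then stored at room temperature until ripe, so storage and ripening cannot be told apart. Polyadenylated RNA was sequenced, and each library has a table of FPKM (fragments per kilobase of transcript, scaled to library depth) for each gene. The stages are described as 3 biological replicates, and no source used here says how many fruits or trees they came from, so p-values here refer to library-to-library spread, which may be technical. The label pulp could not be checked against markers of seed or husk, because no table used here gives product names for all genes.

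Ethylene is the gaseous hormone that starts the ripening of climacteric fruits, of which durian is one. In Arabidopsis its receptors sit in the membrane of the endoplasmic reticulum and, without the hormone, keep the kinase CTR1 active, which holds the response off. Binding of ethylene silences the receptors, and the transcription factor EIN3 then accumulates. EBF1 is the F-box subunit of a ubiquitin ligase that sends EIN3 for degradation and so limits the response. MAP kinases are the last step of 3-tier phosphorylation cascades, and MAP kinase 3 of Arabidopsis phosphorylates ACC synthases, the enzymes that make the ethylene precursor.

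The 9 libraries held 2350 to 3553 Mb of mapped bases, as the ratio of coverage to FPKM shows, and the 7 genes were listed in all of them at a coverage of at least 11.5 reads per base. The MS libraries lay close together, with an SD of the log2 ratio between a pair of libraries of 0.123 to 0.127, and the YS libraries lay apart, with 0.791 to 0.939. RS libraries 01 and 02 differed by an SD of 0.151, while RS library 03 stood apart from both (0.597 and 0.614). Its 10 most abundant genes held 26.3% of its FPKM, against 8.34% to 12.4% in the other libraries, and its size factor (the median ratio of its genes to their geometric mean) was 0.479, against 1.03 to 1.21 elsewhere. The FPKM of most genes were therefore low in RS library 03, and values without it are given where they change a call or a value by a large factor. Scaling by size factors moved the median change of all genes from -0.35 to 0.01 on the log2 scale in YSRS and from -0.40 to -0.02 in MSRS, and left YSMS near 0 (0.06 and 0.02). In bulk pulp, fewer cells of a type and less RNA per cell cannot be told apart.

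Fits of log2(FPKM + 1) with limma, each over the 6 libraries of 2 stages, covered 21598 genes that reached an FPKM of 1 in at least 3 libraries, all 7 genes among them. Rises and falls were called at a log2 fold change above 1.5 or below -1.5 together with a Benjamini-Hochberg adjusted p under 0.05. In YSMS, 4 of the 7 genes rose, 2 fell and 1 did not pass, while of all tested genes 5.43% rose and 10.2% fell (15.7% in all). In MSRS, 1 of the 7 rose, 3 fell and 3 did not pass, against 3.95% and 5.26% of all tested genes (9.21% in all). In YSRS, 1 of the 7 fell and 6 did not pass, against 9.36% of all genes that fell and 2.89% that rose (12.3% in all). With size factors, the split of all genes that rose and fell went from 625 and 2022 to 1101 and 1421 in YSRS, and from 853 and 1136 to 1389 and 485 in MSRS. The comparisons share libraries (MS stands in 2 of them), so their values are set side by side and are not independent of each other. When the 3 MS libraries were averaged to 1 sample, that sample was fitted together with the 3 YS and 3 RS libraries. This leaves the spread at MS unmeasured, and the error takes in RS spread in YSMS and YS spread in MSRS. Lost calls therefore cannot be put down to the averaging alone. The calls still made in YSMS and MSRS were the rise and fall of LOC111279153 and the YSMS fall of LOC111284718.

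**Figure D1:**
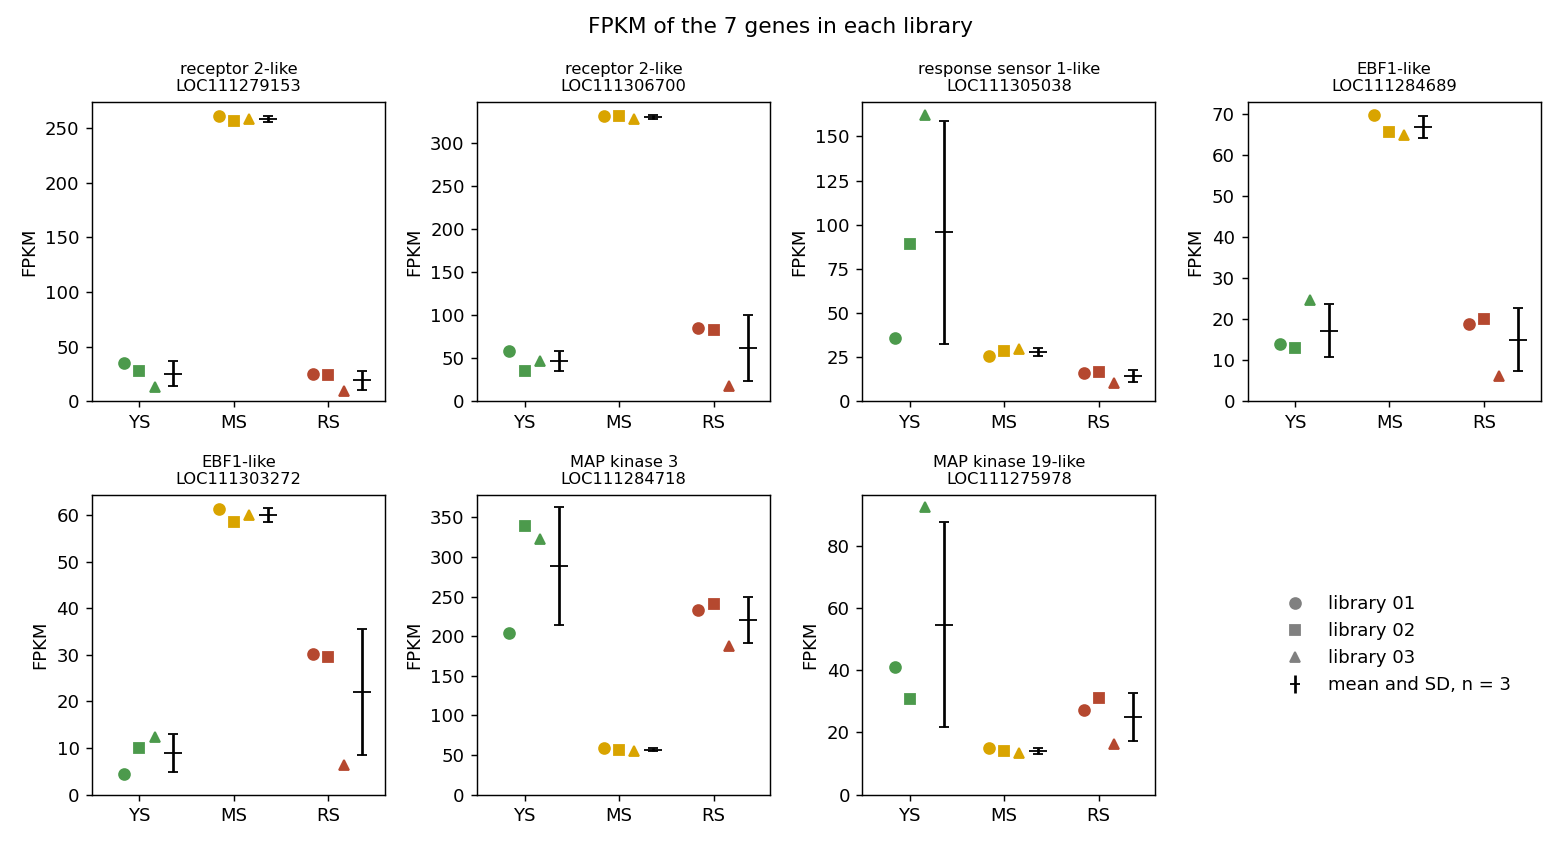
FPKM (linear axis from 0) of each of the 7 genes in the 3 libraries of each stage, with the mean and SD of the stage (n = 3) to the right of the points. Both receptor 2-like genes and both EBF1 genes are highest in the 3 MS libraries, MAP kinase 3 and MAP kinase 19-like are lowest there, and the response sensor 1-like gene is highest at YS.

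By the FPKM of the reference gene, the receptor 2-like gene LOC111279153 was about 10.1 times higher at MS than at YS and about 13.3 times higher than at RS. It lies on the minus strand of scaffold NW_019168026.1 at 3496256 to 3500255, in the build of the authors' tables. Its FPKM was 35.4, 27.8 and 13.2 in the YS libraries, 261.1, 255.9 and 257.9 in the MS libraries and 25.0, 23.9 and 9.29 in the RS libraries. All MS values lay above all others, and the YS and RS values overlapped. The gene rose from YS to MS by 3.40 on the log2 scale (standard error [SE] 0.35, limma adjusted p = 0.000941) and changed by -3.78 from MS to RS (SE 0.37, limma adjusted p = 0.000793). The YSRS change was -0.38 (SE 0.49, limma adjusted p = 0.638), and 0.074 with size factors. Both calls were kept under all 16 other settings tried, all of them on the reference gene. Each library also listed an assembled locus with the same span, strand and coverage. The FPKM of that locus was 35.4, 55.2 and 30.8 at YS, 262.7, 255.9 and 259.5 at MS and 25.0, 23.9 and 21.8 at RS. MS was again highest, but YS libraries 02 and 03 and RS library 03 were higher than for the reference gene. The reason was not tested. A second reference gene, LOC111279350, covers 381 bases at the same scaffold position and on the same strand (3496256 to 3496636), inside the 3′ end of LOC111279153. Reads there cannot be assigned to one of them alone. Its FPKM was 20.1 to 62.6 at YS, 360.2 to 372.3 at MS and 14.1 to 34.3 at RS, so the overlapping gene showed the same order of stages.

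The second receptor 2-like gene, LOC111306700 (plus strand of NW_019167904.1, 16153506 to 16158148), was the most abundant of the listed receptor genes at MS, where its FPKM ranked 210 to 215 among all genes of a library. Its FPKM was 58.2, 34.9 and 47.4 at YS, 331.3, 331.4 and 328.0 at MS and 85.1, 83.0 and 18.2 at RS. The MS values again lay above all others, while RS library 03 was below every YS library and the other RS libraries were above every YS library. It rose from YS to MS by 2.82 on the log2 scale (SE 0.22, limma adjusted p = 0.000399), with a 7.06-fold higher mean FPKM at MS. From MS to RS it changed by -2.68 (SE 0.56, limma adjusted p = 0.0137). This fall was no longer called when any one MS library was left out (limma adjusted p = 0.0557 to 0.0575) or without the filter on low values (0.066), and its size stayed at -2.68 to -2.67 in those fits. Without RS library 03, the mean FPKM at RS was 84.1 and MS was 3.93 times higher, against 5.32 times with it, and the log2 change was -1.96, still called. In YSRS the change was 0.15 (SE 0.57, limma adjusted p = 0.889), with values of -0.22 and -0.20 without RS library 01 or 02, -0.05 without YS library 02, 0.86 without RS library 03 (0.121) and 0.62 with size factors (0.277). Assembled loci on the opposite strand overlapped the gene in 4 libraries, at 0.55% to 1.64% of its coverage.

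The response sensor 1-like gene LOC111305038 (plus strand of NW_019167893.1, 5036269 to 5040415) had its highest level at YS and its lowest at RS. In Arabidopsis, ERS1 belongs to the receptor subfamily other than that of ETR2 and lacks the receiver domain. Its FPKM was 36.0, 89.1 and 162.0 at YS, 25.7, 28.5 and 29.9 at MS and 16.2, 16.6 and 10.3 at RS. The 3 stages did not overlap in any pair, although the YS libraries differed among themselves by 4.498-fold. No overlap in YS to RS was seen for 37.9% of all tested genes, and for LOC111305038 alone among the 7 genes. It fell from YS to RS, with a change of -2.44 on the log2 scale (SE 0.52, limma adjusted p = 0.0127). That call was lost without YS library 02 (adjusted p = 0.053), without RS library 03 (0.0697) and without the filter (0.105), with changes of -2.37, -2.23 and -2.44. From YS to MS the change was -1.49 (SE 0.50, limma adjusted p = 0.0525), just short of both thresholds, and it passed at -1.52 with size factors (0.0464) and at -2.06 without YS library 01 (0.00332), while it was -0.99 without YS library 03 (0.0833). The MSRS change of -0.95 (SE 0.22, limma adjusted p = 0.0199) was within the fold threshold, and with size factors it was -0.45.

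The make-up of the transcripts of the listed receptor genes therefore differed between YS and MS in these libraries. Some shares at RS overlapped those at YS or at MS. The study's list holds a further receptor 2-like gene, LOC111291911, whose FPKM was 0.874, 2.71 and 3.05 at YS, 10.04, 9.90 and 9.51 at MS and 1.45, 1.37 and 0.333 at RS, the same order as in the other receptor 2-like genes at a much lower level. It rose by 1.83 in YSMS and changed by -2.45 in MSRS on the log2 scale (limma adjusted p = 0.00518 and 0.00123). Neither call was kept with the MS libraries averaged, and its YS and RS values were low. Summed over these 4 receptor genes, FPKM was 130.4 to 225.6 at YS, 625.3 to 628.1 at MS and 38.2 to 127.8 at RS, with the lowest sum in RS library 03. The study also reports an ethylene receptor-like gene, LOC111288040, as lower at RS than at MS. It is not among the 4 genes, so the sums and shares do not cover all receptor transcripts. LOC111305038 made up 52.4% ± 22.6 of the sum at YS (SD, n = 3, range 27.6% to 71.8%), 4.48% ± 0.35 at MS and 17.6% ± 8.1 at RS (12.7% to 27.0%). LOC111306700 made up 29.4% ± 13.2 at YS, 52.7% ± 0.26 at MS and 60.3% ± 10.8 at RS (47.8% to 66.6%), so its MS and RS shares overlapped. For LOC111279153 the shares were 16.99% ± 10.7, 41.2% ± 0.34 and 21.0% ± 2.9, and those at YS and RS overlapped. The sums and shares use the FPKM of its reference gene. The assembled locus there had 55.2 and 30.8 in YS libraries 02 and 03 and 21.8 in RS library 03, against 27.8, 13.2 and 9.29. Sums and shares with the locus were not computed, so the higher share at MS holds for the reference gene only. A share is a ratio of FPKM within a library and does not change when the library is rescaled. RS library 03 stood apart from the other RS libraries in its shares as well, with 27.0% for LOC111305038 and 47.8% for LOC111306700.

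**Figure D2:**
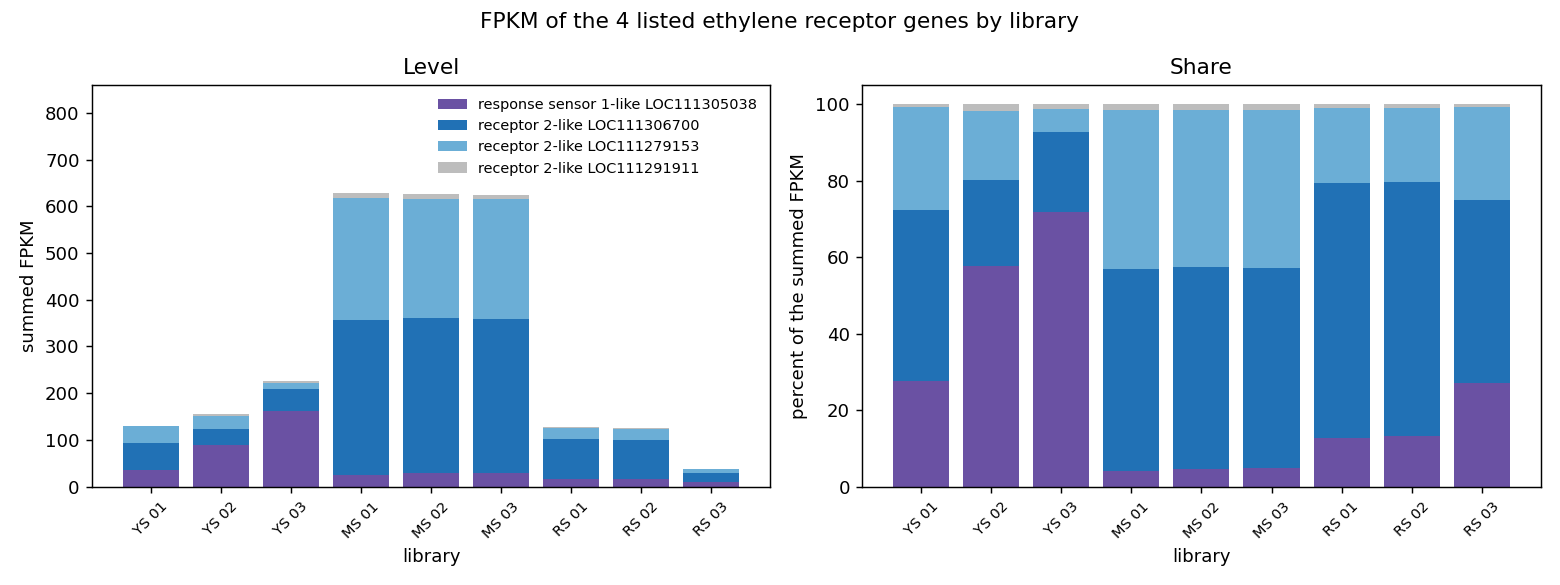
Summed FPKM of the 4 listed ethylene receptor genes in each library (left) and the percent of that sum held by each gene (right). The sum is 625.3 to 628.1 in the MS libraries, and the response sensor 1-like gene holds 27.6% to 71.8% of it at YS and 4.48% on average at MS.

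The log2 ratios between receptor genes within a library describe these differences, and their 95% intervals show spread only. For LOC111279153 they too use the reference gene, and ratios with its assembled locus were not computed. From YS to MS, the ratio of LOC111279153 to LOC111305038 changed by 4.89 (95% interval 2.08 to 7.71), and that of LOC111306700 to LOC111305038 by 4.32 (2.23 to 6.40). Both ratios went back in part from MS to RS, by -2.84 (-3.51 to -2.17) and -1.73 (-3.15 to -0.31). From MS to RS, the ratio of LOC111279153 to LOC111306700 changed by -1.11 (-1.88 to -0.33, exact permutation p = 0.1). Its change from YS to MS was 0.58 (-0.63 to 1.79, exact permutation p = 0.4). The libraries did not overlap in the YSMS and MSRS changes against LOC111305038. How often the ratios of other gene pairs do not overlap was not measured. Two-sided exact permutation tests of these changes gave p = 0.1, the smallest that 3 against 3 libraries allow (0.15 after adjustment over 15 such tests in 5 gene pairs). No such test can pass 0.05 in this design.

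Both EBF1 genes had their highest FPKM at MS, as the receptor 2-like genes had. LOC111284689 lies on the minus strand of NW_019168159.1 at 28546494 to 28550691. Its FPKM was 13.9, 13.0 and 24.6 at YS, 69.8, 65.5 and 65.0 at MS and 18.9, 20.0 and 6.23 at RS. The YS and RS values overlapped, and all MS values were higher. The gene rose by 1.95 from YS to MS (SE 0.26, limma adjusted p = 0.00234) and changed by -2.23 from MS to RS (SE 0.41, limma adjusted p = 0.00867), on the log2 scale. Its YSRS change was -0.27 (SE 0.48), and 0.17 with size factors or 0.23 without RS library 03, so that it had no stable sign.

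The other EBF1 gene, LOC111303272 (plus strand of NW_019167882.1, 15031876 to 15035443), was the lowest of the 7 genes at YS. Its FPKM was 4.40, 10.1 and 12.4 at YS, 61.4, 58.5 and 60.1 at MS and 30.3, 29.5 and 6.40 at RS. RS libraries 01 and 02 were above all YS libraries, and RS library 03 lay among them. The mean at MS was 6.71 times that at YS, a rise of 2.72 on the log2 scale (SE 0.34, limma adjusted p = 0.00185). The MSRS change of -1.67 (SE 0.54) missed the threshold (limma adjusted p = 0.0526). It passed at the same size with 1 fit over the 9 libraries (0.0428) and with limma-trend (0.0469), and at -2.02 without RS library 01 (0.0439). Without RS library 03 it was -0.98 (limma adjusted p = 4.9e-05) and with size factors -1.18 (0.0168), both within the fold threshold, and the mean FPKM at RS was 29.9 without that library, against 22.1 with it. In YSRS the change was 1.05 (SE 0.59, limma adjusted p = 0.260), with 1.73 without RS library 03 (0.0558), 1.48 with size factors (0.0443), 0.66 without YS library 01 and 0.69 without RS library 01. Assembled loci on the opposite strand reached 5.68% and 11.97% of its coverage in 2 libraries, and no source states that strand was kept.

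Between the EBF1 genes, the mean share of LOC111284689 was lower at each later stage in these libraries. LOC111284689 held 66.3% ± 9.9 of their summed FPKM at YS (SD, n = 3, range 56.3% to 76.0%), 52.7% ± 0.64 at MS and 42.7% ± 5.8 at RS (38.5% to 49.3%). The shares of the 3 stages did not overlap, but the 49.3% of RS library 03 lay near the lowest MS share (52.0%). How often the shares of other gene pairs do not overlap was not measured. The log2 ratio of LOC111284689 to LOC111303272 changed by -0.76 from YS to MS (95% interval -1.67 to 0.15), by -0.56 from MS to RS (-1.09 to -0.03) and by -1.32 from YS to RS (-2.37 to -0.27), each with an exact permutation p = 0.1, the smallest possible (0.15 adjusted). Their summed FPKM was 18.4 to 36.9 at YS, 124.1 to 131.2 at MS and 12.6 to 49.5 at RS, so the YS and RS sums overlapped.

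MAP kinase 3 was the most abundant of the 7 genes at YS and RS and dropped at MS. LOC111284718 lies on the minus strand of NW_019168159.1 at 3079099 to 3082884, on the scaffold that also carries LOC111284689. Its FPKM was 203.7, 339.3 and 322.9 at YS, 59.3, 55.9 and 55.1 at MS and 233.6, 240.9 and 187.5 at RS. At MS the assembled locus at this position had 67.5, 63.2 and 59.6, at 88.2% to 95.5% of the gene's coverage. All MS values of the gene itself were below all others, and its YS and RS values overlapped. The change from YS to MS was -2.29 on the log2 scale (SE 0.24, limma adjusted p = 0.000969), with a mean 5.08 times higher at YS, and it was called under all 16 other settings. From MS to RS the gene rose by 1.93 (SE 0.18, limma adjusted p = 0.000643), and this call was lost only with the MS libraries averaged (0.135). The YSRS change was -0.36 (SE 0.36), and 0.13 with size factors. RS library 03 was low in it by less than in the receptors and EBF1 genes, with the highest RS value only 1.28 times the lowest, against 2.69 to 4.74 times in the receptor 2-like and EBF1 genes. In the deposited tables its FPKM was 1.30 to 1.52 times what its coverage gives, while the ratio was 1.00 to 1.03 in the other 6 genes. With values rebuilt from coverage, an alternative chosen after seeing the data, the changes were -2.08 (YS to MS) and 1.77 (MS to RS), and both calls held.

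MAP kinase 19-like (LOC111275978, minus strand of NW_019167993.1, 8985615 to 8992275) was also lowest at MS, less sharply. Its FPKM was 40.9, 30.8 and 92.3 at YS, 14.9, 13.9 and 13.3 at MS and 27.1, 31.1 and 16.2 at RS. The MS values lay below all others, and YS library 03 stood far above the other YS libraries. The change from YS to MS was -1.73 on the log2 scale (SE 0.39, limma adjusted p = 0.0137). Without YS library 03 it was -1.28 and within the fold threshold, and without MS library 02 or 03 the adjusted p was 0.0541 and 0.056. The MSRS change was 0.73 (SE 0.26, limma adjusted p = 0.0663), and that in YSRS was -1.0 (SE 0.46, limma adjusted p = 0.174). With size factors these were 1.23 and -0.53, and without YS library 03 the YSRS change was -0.55. The log2 ratio of MAP kinase 3 to MAP kinase 19-like changed by 1.20 from MS to RS (95% interval 0.75 to 1.65, exact permutation p = 0.1, adjusted 0.15) and by -0.56 from YS to MS (-1.89 to 0.78, exact permutation p = 0.4).

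**Figure D3:**
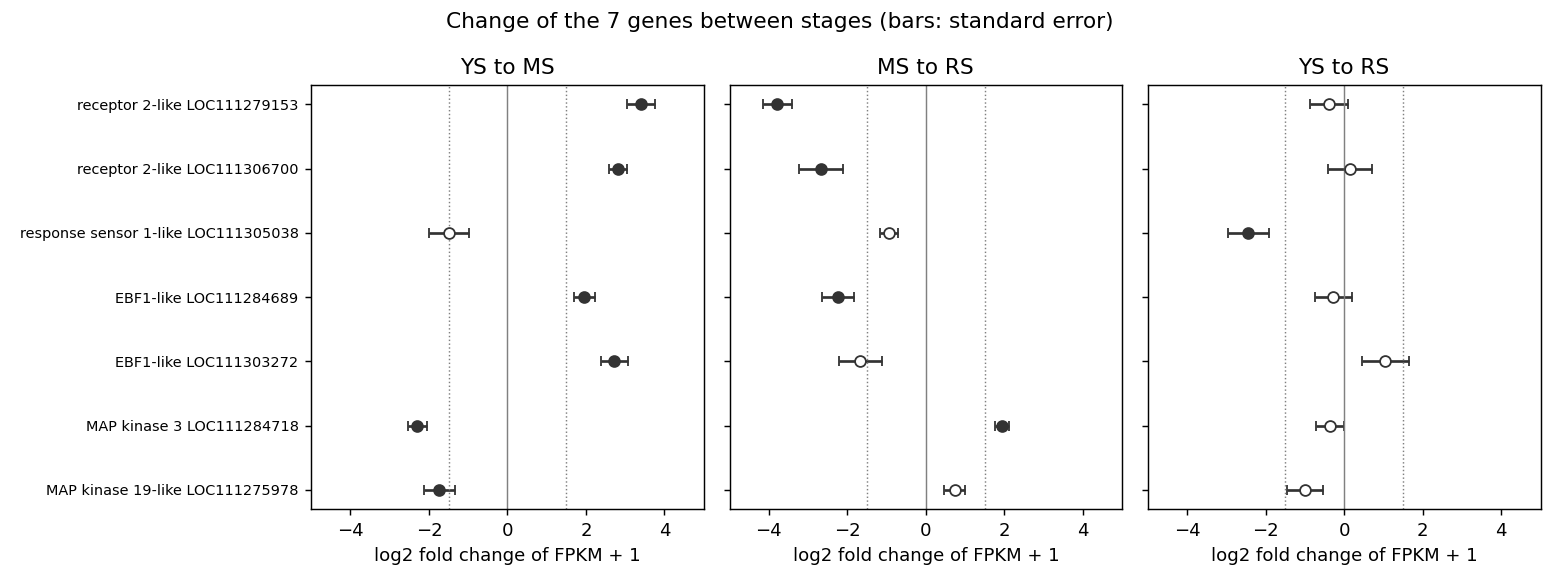
Change of log2(FPKM + 1) with its standard error (limma, 3 libraries per stage) for the 7 genes in the 3 comparisons. Filled points passed both thresholds, open points did not, and dotted lines mark a log2 fold change of 1.5 in either direction. The receptor 2-like and EBF1 genes lie at 1.95 to 3.40 for YS to MS and at -3.78 to -1.67 for MS to RS, and the MAP kinases lie on the opposite side in both.

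Across the 7 genes, the MS libraries did not overlap with the YS libraries or with the RS libraries in any gene, but this held for 58.5% (YS to MS) and 61.1% (MS to RS) of all tested genes as well. All 7 genes differed between the stages in limma's F test (adjusted p = 0.000162 to 0.0139), as did 47.4% of the tested genes. The median change of the 7 genes, which moved in both directions, was 1.95 in YSMS, -1.67 in MSRS and -0.36 in YSRS, beside 0.06, -0.40 and -0.35 over all tested genes. At MS the order of mean FPKM was LOC111306700, LOC111279153, LOC111284689, LOC111303272, MAP kinase 3, the response sensor 1-like gene and MAP kinase 19-like (330.2, 258.3, 66.8, 60.0, 56.8, 28.0 and 14.0), and among the neighbours LOC111303272 and MAP kinase 3 overlapped between libraries. At YS, MAP kinase 3 came first (288.7 ± 74.0, SD, n = 3), followed by the response sensor 1-like gene (95.7 ± 63.3), MAP kinase 19-like (54.7 ± 33.0) and LOC111306700 (46.8 ± 11.7), and the last 3 did not differ beyond their spread. At RS, MAP kinase 3 (220.7 ± 29.0) stood above LOC111306700 (62.1 ± 38.0), and the remaining means ran from 24.8 to 14.4, with overlapping libraries between neighbours. Without RS library 03 those 5 means ran from 29.9 (LOC111303272) and 29.1 (MAP kinase 19-like) to 24.5, 19.5 and 16.4 (the response sensor 1-like gene).

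The study's list of ethylene signalling genes holds 17 more genes, 16 of which were tested. In YSMS 2 of them rose, 8 fell and 6 did not pass, where 5.43% and 10.2% of all tested genes rose and fell. In MSRS 2 of them rose and 2 fell, with 12 that did not pass (3.95% and 5.26% of all genes), and in YSRS 1 rose and 6 fell, with 9 that did not pass (2.89% and 9.36%). Because the study drew the list up from these libraries, the counts are not independent evidence of a direction. Without RS library 03, 3 rather than 6 fell in YSRS and none rose, while over all tested genes the falls went from 2022 to 1002, and 1 rather than 2 fell in MSRS. After averaging the MS libraries, YSMS had 0 that rose and 3 that fell, and none passed in MSRS (limma, 3 at an unadjusted p under 0.05).

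The members of that list fall along the pathway. The CTR1-like kinase LOC111312465, the partner of the receptors in Arabidopsis, was low throughout, with an FPKM of 1.04, 0.458 and 3.01 at YS, 0.327, 0.391 and 0.424 at MS and 1.93, 1.36 and 0.745 at RS. It did not pass in any comparison, with changes of -0.73 (YS to MS), 0.73 (MS to RS) and 0.00 (YS to RS) on the log2 scale. Of the 2 ethylene-overproduction protein 1-like genes, which in Arabidopsis direct ACC synthase to degradation, LOC111295068 went from a mean FPKM of 7.16 at YS to 0.707 at MS (log2 change -2.22, limma adjusted p = 0.00139). The other, LOC111286414, went from 22.7 at MS to 5.48 at RS (-2.21, limma adjusted p = 0.034), and its YS libraries ranged over 25.4-fold. Without RS library 03 the mean at RS was 7.87 and the change -1.42, so that this fall was no longer called. Of the other 4 MAP kinases, LOC111301438 (an NTF6 homolog) fell from YS to MS, with a change of -2.01 (limma adjusted p = 0.000861). MAP kinase 17-like, LOC111282084, rose from MS to RS by 2.13 (limma adjusted p = 0.0125), from a mean FPKM of 1.80 to 12.6. Neither level came near that of MAP kinase 3, at 56.8 to 288.7 FPKM.

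Among the MAP kinase kinase kinases, the first tier of the cascade, 8 of 9 were tested and 6 of them fell from YS to MS, while 1 rose (10.2% and 5.43% of all tested genes). With the MS libraries averaged, 3 of the 8 fell and 0 rose (limma, 7 at an unadjusted p under 0.05). The change was largest in LOC111275659, whose FPKM was 51, 44.5 and 24.04 at YS, 0.107, 0.123 and 0.158 at MS and 3.13, 2.39 and 1.88 at RS (log2 change -5.11 in YSMS and 1.60 in MSRS, limma adjusted p = 0.000149 and 0.00171). RefSeq's annotation of another durian assembly (ASM4732523v1) classes this gene as a transcribed pseudogene and LOC111318818, another of those that fell, as a pseudogene, whereas all 7 genes described above are protein-coding in it. LOC111285643 was the one that rose, from a mean FPKM of 14.5 at YS to 91.4 at MS (2.87, limma adjusted p = 0.00771), and its mean was 54.7 at RS. That rise was not called with the MS libraries averaged (limma adjusted p = 0.0642).

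**Figure D4:**
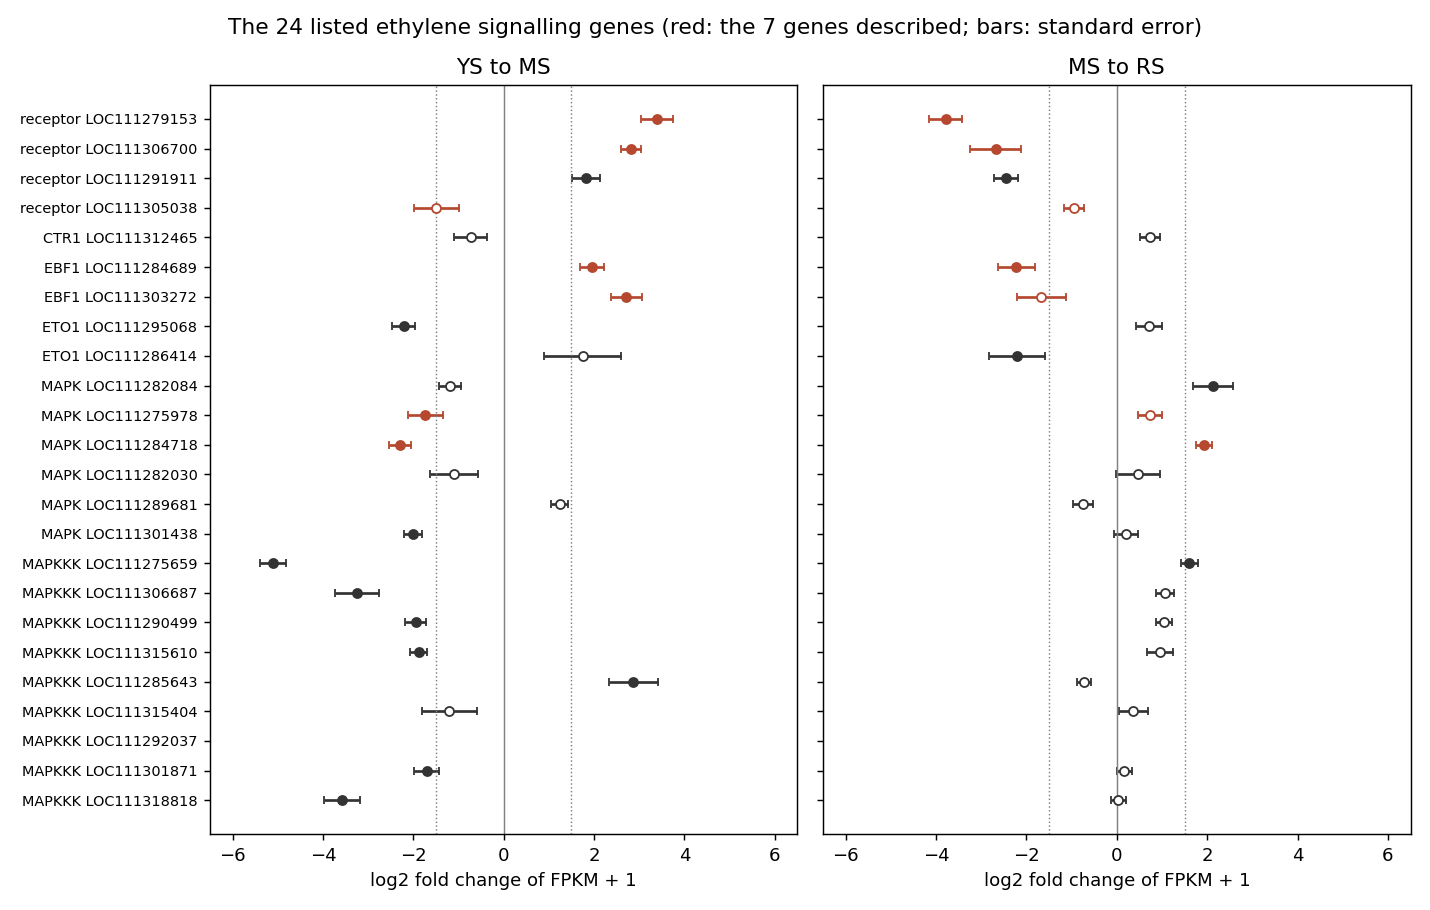
Change of log2(FPKM + 1) with its standard error for the ethylene signalling genes of the study's list, in YSMS (left) and MSRS (right), grouped by role. Filled points passed both thresholds, and LOC111292037 was not tested. The 3 receptor 2-like genes and 2 EBF1 genes lie above 1.5 on the left, where 6 of the 8 tested MAP kinase kinase kinases lie below -1.5.

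The study's lists on either side of the signalling genes gave other counts. Of 16 tested ethylene synthesis genes, 1 rose and 7 fell in YSMS, and 3 rose and 2 fell in MSRS (7 and 0 without RS library 03). Of 42 tested ethylene-responsive transcription factor genes, 4 rose and 28 fell in YSMS, and 5 rose and 3 fell in MSRS (11 and 3 without RS library 03). Of all tested genes, 5.43% rose and 10.2% fell in YSMS, and in MSRS leaving out RS library 03 moved the counts over all genes from 853 rising and 1136 falling to 1310 and 630. The median changes were -1.60 and -2.30 on the log2 scale from YS to MS, beside 0.06 over all tested genes. The receptor 2-like and EBF1 genes thus stood on the other side of 0 from the medians of both lists in that comparison. The study drew these lists up from the same samples, so the contrast is not independent evidence. The counts take the MS libraries as 3 replicates, and fewer genes of both lists passed when these were averaged.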

How the data were processed

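Per the labels, the libraries were made from polyadenylated RNA with the NEB Next Ultra kit. The authors mapped the reads to a durian genome whose build is not given in the sources used here. The paper names HISAT2 and StringTie, while the submitters' processing notes name FastQC, Trimmomatic, Bowtie and TopHat. The FPKM values were used as deposited by the authors. The deposited coverage is a signal, the mean read depth per base, not scaled to the library. The deposited TPM column was treated as a score, because it sums over reference genes and loci assembled in each library. As read counts are not part of the tables, count models were not used. A gene missing from a table was set to 0, which concerned 0 values of the 7 genes.

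Pairs of stages were compared with limma 3.58.1 (R 4.3.3) on log2(FPKM + 1), which understates changes of low genes, with Benjamini-Hochberg adjustment over 21598 genes. Thresholds (log2 fold change 1.5, adjusted p 0.05) follow the paper. Ratios between genes of a library were tested with two-sided exact permutation tests in SciPy 1.17.1. All 7 genes were named, with the other listed signalling genes as counts and, per role, the gene with the largest change past the test, and for each of the 7 genes the 2 most similar genes by Pearson r. The genes and lists were chosen with earlier results of these data known. The fit was run on simulated data with known changes, whose outcome is not used here. Alternatives were pseudocounts of 0.1 and 5, other filters on low values, size factors, other fits, averaged MS libraries and leaving out each library. Python 3.11.15 with pandas 2.3.3 and NumPy 2.4.6 read the tables, and Matplotlib 3.10.9 drew the plots. The replicate numbers were not used to pair the libraries, except in the alternative with them as a block. Gene types came from RefSeq's table of another assembly, whose coordinates were not used.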

Additional observations from a re-analysis of the deposited data

How the results depend on the processing

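Under the 16 other settings, the changes of the 7 genes in YSMS and in MSRS all kept their sign. Of the comparisons of single genes with other settings, 303 kept both sign and call, 18 lost a call, 6 gained one and 9 changed sign. Part of the 303 could hardly differ. Averaging the MS libraries leaves the YSRS fit as it was, and coverage gives nearly the same values except in LOC111284718. The sign changes were all in YSRS, in values that passed under no setting. With size factors the values were 0.074 in LOC111279153, 0.17 in LOC111284689 and 0.13 in LOC111284718. With 1 library left out they ran from -0.78 to 0.052 in LOC111279153, from -0.54 to 0.23 in LOC111284689 and from -0.22 to 0.86 in LOC111306700, whose sign turned without YS library 02 and without RS library 01 or 02. The number of the 7 genes that fell in YSMS was 1 without the filter and with the MS libraries averaged, and 1 to 3 with 1 library left out. The number that rose was 1 with the MS libraries averaged. In YSRS, 0 fell without the filter, and 0 to 1 with 1 library left out. In MSRS, averaging the MS libraries left 0 that rose and 1 that fell.

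Counts over all genes moved more. With a pseudocount of 5, 555 rose and 906 fell in YSMS, 341 and 583 in YSRS, and 437 and 403 in MSRS. With 0.1, 1773 rose in YSMS, and 1285 rose and 2122 fell in MSRS. An FPKM filter of 5 left 1458 falling in YSMS and 1309 in YSRS, and no filter gave 300 rising and 615 falling in YSRS. Size factors gave 1101 rising in YSRS, and 1389 rising and 485 falling in MSRS. With the MS libraries averaged, 300 rose and 628 fell in YSMS, and 128 rose and 58 fell in MSRS. With 1 library left out, 1002 to 2478 fell in YSRS, and 714 to 1310 rose and 630 to 1618 fell in MSRS, the extremes 1002, 1310 and 630 being those without RS library 03. The cause was not tested.

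With the replicate number as a block, LOC111303272 passed in MSRS (adjusted p = 0.0329), 4 of the 7 genes fell there, and no other call among the 7 genes changed. Same-numbered libraries correlated between stages by -0.16 to 0.08 in their deviations, and differently numbered ones by -0.15 to 0.18. The MS libraries barely differ and RS library 03 stands apart, so these values cannot show whether the numbers pair libraries. At 3 libraries per stage, the spread limits the precision of YS values, and whether the MS libraries come from separate fruits cannot be told from the tables.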

Other observations

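Genes with a course like that of the 7 genes were looked for among 10826 genes with a mean FPKM of at least 10 in a stage, by Pearson's r of log2(FPKM + 1) over the 9 libraries. The libraries of a stage share that stage, so r describes these libraries and is given with no test. The EBF1 gene LOC111284689 was most like LOC111293599 (r = 0.999), whose mean FPKM was 191.5 at YS, 401.1 at MS and 175.7 at RS, and LOC111284999 (0.998, mean FPKM 13.5, 58.9 and 12.9). The other EBF1 gene, LOC111303272, was most like LOC111309284 (0.995) and LOC111276658 (0.993). MAP kinase 3 was most like LOC111297040 (0.997, mean FPKM 172.4, 37.6 and 144.9) and LOC111281450 (0.997, 33.3, 2.51 and 25.3). The receptor 2-like gene LOC111279153 was most like LOC111274843 and LOC111314117 (both 0.996), and LOC111306700 was most like LOC111294014 (0.994) and LOC111279776 (0.993). For the response sensor 1-like gene the most similar were LOC111287570 (0.994, mean FPKM 18.0, 4.59 and 1.69) and LOC111284908 (0.990), whose highest library was YS library 03, as in the gene itself. MAP kinase 19-like was most like LOC111310949 and LOC111289279 (both 0.991). The names of these genes are not given in the tables used here. RefSeq's annotation of the other durian assembly classes LOC111274843 and LOC111310949 as transcribed pseudogenes. In it LOC111279776 and LOC111309284 are long non-coding RNAs, LOC111284908 was not matched, and the other similar genes are protein-coding.

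Between the 7 genes, the EBF1 gene LOC111284689 and the receptor 2-like gene LOC111306700 had r = 0.966 over the 9 libraries, and the receptor 2-like genes had 0.947 with each other. MAP kinase 3 had r = -0.917 with LOC111279153 and -0.864 with LOC111306700. The response sensor 1-like gene had r between -0.21 and 0.11 with the receptor 2-like and EBF1 genes, and 0.670 with MAP kinase 19-like, whose highest library was also YS library 03.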
